A study of Homo sapiens with 4 samples.

Results

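Expression of 10 chemokine genes whose products act mainly on monocytes, lymphocytes and eosinophils was followed in U87 cells, an established human glioma line, with and without knockdown of PTPRN. The genes were CCL2, CCL5, CCL7, CCL20, CCL26, CX3CL1, CXCL10, CXCL12, CXCL14 and CXCL16. They were taken from the table by their symbols, from a list drawn up with earlier results of these data known, and they make up 10 of the 19314 genes listed in the deposited table. Of the 10 genes, 9 had a value in at least 1 library, 4 reached an FPKM of 1 and 1 reached an FPKM of 10. FPKM is a read count scaled to the length of the transcript and to the depth of the library, so levels of different genes can be set side by side.

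The libraries came from U87 cells with the genotype PTPRN knockdown (n = 2, titled PTP2) and from U87 cells with the genotype SCR (n = 2). PTPRN codes for a receptor-type member of the protein tyrosine phosphatase family in secretory granules, and the study describes its phosphatase domain as inactive. The study's methods describe its knockdown with a short hairpin RNA, with a scrambled hairpin as the control. The study lists 2 PTPRN hairpins, and the labels do not say which of them PTP2 stands for. An effect of lower PTPRN and an effect of the hairpin itself cannot be told apart in these libraries. Both groups come from 1 cell line, and no source used here gives separate cultures for the replicates, so the p-values measure only the spread between these libraries. The labels' culture note names hCMEC/D3, a brain endothelial line, and serum-free medium with growth factors, while the cell line field gives U87 and the study's methods describe a medium with serum. In bulk RNA, fewer cells that express a gene and less RNA per cell cannot be told apart.

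Chemokines are small secreted proteins that direct the movement of leukocytes along a gradient. Each binds 1 or more G protein-coupled receptors on the target cell. In glioma, CCL2 and its relatives are known for drawing in monocytes and macrophages, and CXCL12 for its action on tumor and vascular cells. Many of these genes are silent at rest and are switched on by NF-kappa B, interferon or cytokine signaling, while CXCL12 and CXCL14 belong to the homeostatic chemokines. CX3CL1 and CXCL16 differ from the rest in being made as membrane proteins on a mucin stalk and released by proteases.

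The promoter sequences of 3 of these genes are shown because they place the letters of known response motifs beside genes that behaved differently here. CCL20 was higher in the knockdown, CXCL10 had no value in any library, and CCL7 is the chromosomal neighbor of CCL2. The sequences come from RefSeq on GRCh38.p14, run 5′ to 3′ on the strand of the gene and end before the gene start in RefSeq and in the deposited table. Capitals mark matches on either strand to GGNNNTTCC (a kappa B motif), GAAANNGAA (an interferon response motif) and TGANTCA (an AP-1 motif). The regions are chr2:227813592-227813841 on the plus strand for CCL20, chr4:76023537-76023747 on the minus strand for CXCL10 and chr17:34269971-34270215 on the plus strand for CCL7.
CCL20: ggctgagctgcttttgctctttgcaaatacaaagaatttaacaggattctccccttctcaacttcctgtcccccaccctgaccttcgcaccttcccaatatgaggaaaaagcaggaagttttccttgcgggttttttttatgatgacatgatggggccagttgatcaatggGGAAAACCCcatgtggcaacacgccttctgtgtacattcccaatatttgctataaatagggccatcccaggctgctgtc
CXCL10: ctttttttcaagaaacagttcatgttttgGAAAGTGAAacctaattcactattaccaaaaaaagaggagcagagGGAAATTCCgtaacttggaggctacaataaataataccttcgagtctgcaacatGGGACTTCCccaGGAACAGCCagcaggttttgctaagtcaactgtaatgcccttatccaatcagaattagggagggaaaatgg
CCL7: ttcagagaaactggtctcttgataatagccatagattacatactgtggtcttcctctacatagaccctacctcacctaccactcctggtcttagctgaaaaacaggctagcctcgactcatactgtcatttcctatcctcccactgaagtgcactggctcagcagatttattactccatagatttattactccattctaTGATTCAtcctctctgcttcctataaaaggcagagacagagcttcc

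In CCL20, the kappa B motif matched from 79 to 71 bases before the RefSeq start, as its reverse complement. In CXCL10, the kappa B motif matched at 3 places, which begin 176, 122 and 110 bases before the RefSeq start, and the interferon response motif matched from 221 to 213 bases before it. In CCL7, the AP-1 motif matched from 51 to 45 bases before the start. A promoter of 300 bases, with 250 before and 50 after the start, was found for 6 of the 10 genes, the others being CXCL14, CCL26 and CXCL12. The kappa B motif was present in 2 of these 6 promoters and in 20.1% of all 35116 promoters of that length. The interferon response motif was present in 1 of 6 (CXCL10) and in 8.11% of all promoters, and the AP-1 motif in 2 of 6 (CCL7 and CXCL14) and in 7.71%. A stricter kappa B motif, GGANNTTCC, was present in 1 of 6 (CXCL10) and in 4.56% of all promoters. No motif match was found in the windows of CCL26 and CXCL12, and the RefSeq window of CCL26 lies outside the gene as the deposited table places it (chromosome 7, 75769524 to 75772270). CCL2, CCL5, CX3CL1 and CXCL16 were not matched to a promoter.

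The targeted gene was measured first. PTPRN (Gene ID 5798, chromosome 2, 219289623 to 219309573) had an FPKM of 12.09 and 11.68 in the PTPRN knockdown libraries and of 84.84 and 85.02 in the SCR libraries. Its level was 7.15 times as high in SCR, with a log2 fold change of (FPKM + 1) of -2.74 ± 0.03 (SE) and a limma adjusted p of 1.48e-04, so PTPRN RNA was reduced in the libraries labelled as knockdown and still present. The estimated depth was 18000000 to 19600000 mapped reads per library, and between 11080 and 11252 genes reached an FPKM of 1 in each.

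Between the groups, 2 of the 9 chemokine genes with a value passed the study's thresholds, a 2-fold change or more with an adjusted p no higher than 0.001, here on the scale of log2(FPKM + 1) in limma. CCL2, the monocyte attractant that acts through CCR2, fell. CCL20, which attracts CCR6-bearing lymphocytes and dendritic cells, rose. Among all 16595 genes tested, 4.06% passed these thresholds as lower and 2.63% as higher. The share of genes that passed depended on their level, at 0.601% of genes with a mean FPKM under 1 and 8.94% of genes with a mean FPKM from 1 to under 20, the range that holds CCL2, CCL20, CCL26 and CCL5. With 2 libraries per group, an exact permutation test of any single gene cannot go below a two-sided p of 0.333, so the calls rest on a spread that limma estimates from many genes.

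CCL2 (Gene ID 6347, chromosome 17, 34255277 to 34257203, plus strand) had an FPKM of 3.56 and 3.73 in the PTPRN knockdown and of 15.90 and 15.86 in SCR. Both knockdown libraries were far below both SCR libraries, and the replicates of each group lay close together. The means were 3.65 ± 0.12 (SD, n = 2) and 15.9 ± 0.0283 (SD, n = 2), and the SCR level was 4.36 times the knockdown level. The log2 fold change was -1.86 ± 0.03 (SE, adjusted p = 1.94e-04), and 0.994% of the tested genes had a lower value. These levels stand for about 46 and 48 reads in the knockdown and 221 and 202 reads in SCR, and the 95% Poisson intervals reached up to 4.99 in the knockdown and down to 13.7 in SCR. The log2 fold change stayed between -2.09 and -1.84 under the alternatives tried, and the adjusted p was at most 0.0229.

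CCL7, the monocyte attractant that shares CCR2 with CCL2 and also acts on CCR1 and CCR3, lies 13 kb from CCL2 on chromosome 17 (34270216 to 34272242). Its FPKM was 0.07 and 0.14 in the PTPRN knockdown and 0 in both SCR libraries. These values correspond to about 1 and 2 reads in the knockdown and to none in SCR, where 3 reads would have been worth up to 0.215. All 4 values were below the level of 3 reads, so no fold is given. The log2 difference was 0.14 (95% interval 0.02 to 0.27, adjusted p = 0.0572), and a fall like that of CCL2 was not detectable from these levels. With a pseudocount of 0.1 the difference of CCL7 was 1.01 (adjusted p = 0.0279), without knockdown replicate 1 it was 0.19 (adjusted p = 0.0393), and it passed an adjusted p of 0.05 in 4 of 11 alternatives, with adjusted p from 0.0209 to 0.236. Within 250 kb of CCL2 the table lists 6 genes, of which 5 are chemokines. CCL7 had a value, and CCL1, CCL8, CCL11 and CCL13 were listed without a value in all 4 libraries.

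CCL20 (Gene ID 6364, chromosome 2, 227813842 to 227817564, plus strand) had an FPKM of 1.86 and 1.87 in the PTPRN knockdown and of 0.26 and 0.41 in SCR. Both knockdown libraries were above both SCR libraries. The means were 1.87 ± 0.00707 (SD, n = 2) and 0.335 ± 0.106 (SD, n = 2), a ratio of 5.57. The log2 fold change of (FPKM + 1) was smaller, at 1.10 ± 0.07 (SE, adjusted p = 8.86e-04), since adding 1 shrinks changes of low genes, and it lay just past both thresholds. The gene had about 27 and 27 reads in the knockdown and 4 and 6 reads in SCR, and the 95% Poisson intervals reached down to 1.23 in the knockdown and up to 0.905 in SCR. With a pseudocount of 0.1 in place of 1 the log2 fold change was 2.20 and the adjusted p 0.00583, and across all alternatives it ran from 1.02 to 2.20 with an adjusted p of at most 0.0394.

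The fit behind both calls was sensitive to its settings at the threshold of 0.001. With the pseudocount of 0.1, with genes without a value kept in at 0, or with any library left out, 0 genes of the whole table passed it in limma, though between 8700 and 10185 had an unadjusted p under 0.05. CCL2 and CCL20 passed an adjusted p of 0.05 in each of the 12 alternatives, and their log2 fold changes stayed past a fold of 2 in each.

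CCL26, also called eotaxin-3, attracts eosinophils through CCR3 and is induced by IL-4 and IL-13. Its FPKM (Gene ID 10344) was 3.95 and 6.63 in the PTPRN knockdown and 2.96 and 3.32 in SCR. The groups did not overlap, but the 2 knockdown libraries differed more from each other than the lower of them did from SCR. The means were 5.29 ± 1.90 (SD, n = 2) and 3.14 ± 0.255 (SD, n = 2). The log2 difference was 0.57 ± 0.24 (SE), with a 95% interval of -0.10 to 1.24 and an adjusted p of 0.117. Knockdown replicate 2 set much of this value. Without it the difference was 0.26 (adjusted p = 0.157), and without knockdown replicate 1 it was 0.88 (adjusted p = 0.0385). Across all alternatives the adjusted p of CCL26 ran from 0.0284 to 0.447. The approximate reads were 36 and 60 in the knockdown and 29 and 30 in SCR.

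CCL5, or RANTES, attracts T cells and monocytes through receptors that include CCR1 and CCR3. Its FPKM was 3.62 and 3.09 in the PTPRN knockdown and 2.43 and 2.75 in SCR. The lower knockdown library was above the higher SCR library by less than the gap between the 2 knockdown libraries. The means were 3.35 ± 0.375 and 2.59 ± 0.226 (SD, n = 2 each), the log2 difference was 0.28 ± 0.08 (SE, 95% interval 0.04 to 0.52), and the adjusted p was 0.0575. It ran from 0.015 to 0.305 over 12 alternatives and was under 0.05 in 2 of them, the minimum FPKM and quantile normalization. The deposited table places CCL5 (Gene ID 6352) on an alternate scaffold of chromosome 17, KI270857v1, from 106023 to 114905, and RefSeq places it on chromosome 17 from 35871491 to 35880360. An antisense gene, AC015849.1, overlaps it in GENCODE 29. How reads shared by the 2 copies, or by the 2 strands, were counted is not given in the sources used here, so the level of CCL5 is uncertain on that account.

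CXCL16, the membrane-bound ligand of CXCR6 that also acts as a scavenger receptor, was low. Its FPKM (Gene ID 58191, chromosome 17, 4733529 to 4739928) was 0.37 and 0.50 in the PTPRN knockdown and 0.26 and 0.29 in SCR. The log2 difference was 0.17 ± 0.06 (SE, 95% interval 0.01 to 0.33, adjusted p = 0.0732), on about 15 and 21 reads against 12 and 12. Without knockdown replicate 2 the difference was 0.10 (adjusted p = 0.129), without knockdown replicate 1 it was 0.23 (adjusted p = 0.0497), and with a pseudocount of 0.1 it was 0.50 (adjusted p = 0.0704). It passed an adjusted p of 0.05 in 2 of 11 alternatives, with adjusted p from 0.0274 to 0.32. MED11, on the opposite strand, overlaps CXCL16, and it had an FPKM of 7.30 and 8.17 in the knockdown and of 10.54 and 10.25 in SCR. Without stated strand information, reads of CXCL16 and MED11 in the overlap cannot be told apart.

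The remaining genes were at the limit of detection. CX3CL1, or fractalkine, the ligand of CX3CR1 on monocytes and microglia, had an FPKM of 0 in both knockdown libraries and of 0.03 and 0 in SCR. CXCL12, the ligand of CXCR4 and ACKR3, had an FPKM of 0 in both knockdown libraries and of 0 and 0.06 in SCR. CXCL14, a chemokine of epithelia, had an FPKM of 0 in both knockdown libraries and of 0.03 and 0.09 in SCR. The highest of these values stand for about 2, 4 and 3 reads. The SCR mean of each gene was below the level of 3 reads in the knockdown, which was 0.0506 to 0.0508 for CX3CL1, 0.0472 to 0.0475 for CXCL12 and 0.0857 to 0.0861 for CXCL14, so differences were not detectable at this depth. The adjusted p was 0.619, 0.457 and 0.169. CXCL10, the interferon-inducible ligand of CXCR3 (Gene ID 3627, chromosome 4, 76021116 to 76023536), was listed without a value in all 4 libraries. No gene with a value was at 0 in all 4 libraries, so a gene without reads could appear in this way. For CXCL10, 3 reads would have been worth an FPKM of 0.13 to 0.142. ART3 overlaps CXCL10 on the opposite strand, with an FPKM of at most 0.04, and SLC25A48 and the antisense gene AC034206.1 overlap CXCL14.

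The order of the mean levels changed between the groups. In SCR, CCL2 (15.9) stood above CCL26 (3.14), CCL5 (2.59), CCL20 (0.335) and CXCL16 (0.275), and the libraries of CCL20 and CXCL16 overlapped. In the PTPRN knockdown, CCL26 (5.29) stood above CCL2 (3.65), CCL5 (3.35), CCL20 (1.87) and CXCL16 (0.435), and the libraries of CCL2 and CCL5 overlapped. The place of CCL26 rested mostly on knockdown replicate 2 (6.63). In knockdown replicate 1, CCL26 (3.95), CCL5 (3.62) and CCL2 (3.56) lay close together and their 95% Poisson intervals overlapped. The summed FPKM of the 9 genes was 13.4 and 16 in the knockdown and 21.9 and 22.8 in SCR. CCL2 made up 26.5% and 23.4% of that sum in the knockdown and 72.7% and 69.6% in SCR. Without CCL2 the sum was 9.87 and 12.2 in the knockdown and 5.97 and 6.92 in SCR, so the summed rest was higher in both knockdown libraries while the total was lower. That sum was mostly CCL26, CCL5 and CCL20, of which only CCL20 was called. Of the 9 genes, 5 were higher and 4 lower in the knockdown by their mean, and the median log2 difference was 0.14, against 0.01 over all tested genes. At an adjusted p of at most 0.05 with no minimum fold, 2 of 9 passed (22.2%), again CCL2 and CCL20, against 57.9% of all tested genes. The groups did not overlap for 7 of 9 genes (77.8%), which is close to the 75.6% of all tested genes.

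Further chemokines with a value lay within 250 kb of CCL5, CX3CL1 and CXCL10. CCL3, a macrophage inflammatory protein near CCL5, had an FPKM of 26.84 and 25.77 in the knockdown and of 15.88 and 17.24 in SCR (log2 difference 0.64, adjusted p = 0.00188). CCL4, beside CCL3, had an FPKM of 0.36 and 0 in the knockdown and of 2.71 and 2.20 in SCR (log2 difference -1.56, adjusted p = 0.00428). Neither passed the threshold of 0.001, and both have near-identical copies in the genome, so their values are uncertain. CCL22, near CX3CL1, had a mean FPKM of 0.525 in the knockdown and 0.51 in SCR, and CXCL11, near CXCL10, had 0.03 in 1 SCR library and 0 in the others. CCL15, CCL16 and CCL18, near CCL5, had an FPKM of at most 0.55. Of the 3 genes with a value within 250 kb of CCL20, DAW1, which lies 54.1 kb away and was chosen after its values were seen, rose (3.04 and 2.90 in the knockdown, 0.41 and 0.56 in SCR, log2 fold change 1.42, adjusted p = 5.44e-04). STYXL1, 205 kb from CCL26, rose (log2 fold change 1.30, adjusted p = 3.27e-04) and FAM47E-STBD1, 228 kb from CXCL10, fell (-1.34, adjusted p = 6.53e-04), and both were also chosen after their values were seen. Of the 12 such genes near CCL5, 0 passed the thresholds in limma and 5 had an unadjusted p under 0.05.

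The group was set beside the CXC chemokines that attract neutrophils or come from platelets. Of the 8 genes of that list with a value, 6 rose and none fell, with a median log2 difference of 4.05. CXCL8 had a mean FPKM of 754 in the knockdown and 49.3 in SCR (log2 fold change 3.91), CXCL2 had 151 and 7.32 (4.19), and CXCL5 had 199 and 0.075 (7.54). Their summed FPKM was 1280 and 1290 in the knockdown libraries and 60.7 and 61.3 in SCR. The 25 other chemokines summed to 29.7 and 28 in the knockdown and 21 and 21.9 in SCR, most of it CCL3. Among them, 13 had a value and 0 passed the thresholds in limma, though 2 had an unadjusted p under 0.05. CCL3 and CCL4 passed an adjusted p of 0.05, which is 15.4% of the 13, against 57.9% of all tested genes. The difference between these lists was not tested.

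**Figure D1:**
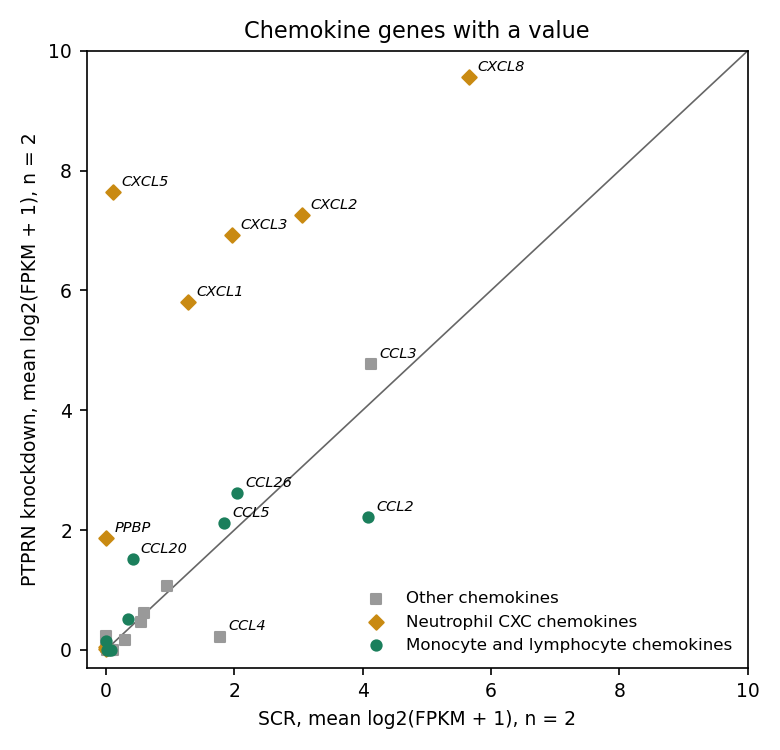
Mean log2(FPKM + 1) of chemokine genes with a value in SCR (horizontal axis) and in the PTPRN knockdown (vertical axis), n = 2 libraries each, with a line of equal level. CXCL8, CXCL5, CXCL2, CXCL3 and CXCL1 lie far above the line, CCL2 and CCL4 lie below it, and CCL26, CCL5 and CCL20 lie near or above it.

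Receptors of these chemokines were mostly near 0 in the U87 libraries. Of the 12 receptors, 11 had a value, and only CCR1, which binds CCL5 and CCL7, reached an FPKM of 1. CCR1 had an FPKM of 3.30 and 3.77 in the knockdown and of 6.91 and 7.01 in SCR (log2 difference -0.81 ± 0.06 (SE), adjusted p = 0.00149), so the groups lay apart but the gene passed neither threshold of a call. CCR2, the receptor of CCL2, had an FPKM of 0.02 in both knockdown libraries and of 0 in both SCR libraries. CCR6, the receptor of CCL20, had 0.28 and 0.39 in the knockdown and 0.32 in both SCR libraries (adjusted p = 0.833). CXCR4, the receptor of CXCL12, was listed without a value. Over all 23 chemokine receptors, 19 had a value and 0 were called in limma, while 7 had an unadjusted p under 0.05. At an adjusted p of at most 0.05, 2 were higher and 4 lower, which is 31.6% of the 19, against 57.9% of all tested genes. The atypical receptor CCRL2, chosen after its values were seen, was among the higher ones (6.29 and 6.63 against 2.66 and 2.98, log2 difference 0.97, adjusted p = 8.90e-04). It missed the fold of 2 on the scale of log2(FPKM + 1), where adding 1 shrinks changes of low genes. The ratio of its mean FPKM was 2.29.

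Cytokines that induce these chemokines in many cell types were described from a list of 11. Of the 8 with a value, 3 rose and none fell by the thresholds. IL1B, a strong inducer of CCL2 and CCL20, had a mean FPKM of 2800 in the knockdown and 43.2 in SCR (log2 fold change 5.99). IL6 had 28.1 and 3.98 (2.55), and IL1A had 17 and 1.88 (2.65). IFNG and IFNB1, which induce CXCL10, and IL17A, which acts on CCL20, were listed without a value. IL4 and IL13, the inducers of CCL26, had an FPKM of at most 0.1 in every library. The tumor necrosis factor gene TNF, chosen after its values were seen, had a mean FPKM of 0.235 in the knockdown and 1.24 in SCR (log2 difference -0.87, adjusted p = 0.00765).

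Of the 15 receptors of these cytokines, 1 rose and none fell by the thresholds. IL13RA2, the decoy receptor of IL-13, had a mean FPKM of 112 in the knockdown and 2.77 in SCR (log2 fold change 4.91). At an adjusted p of at most 0.05, 6 were higher and 6 lower, which is 80% of the list, against 57.9% of all tested genes. The median log2 difference was -0.08. IL1R1, the signaling receptor of IL-1, was among the lower ones and was chosen after its values were seen, with a mean FPKM of 17.1 in the knockdown and 27 in SCR (log2 difference -0.63, adjusted p = 0.00108).

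Transcription factors and feedback inhibitors known to act on chemokine genes made up a list of 20, of which 2 rose and 1 fell. FOSL1, an AP-1 subunit, had a mean FPKM of 575 in the knockdown and 116 in SCR (log2 fold change 2.30). NFKB2, the precursor of the p52 subunit, had 40.8 and 15 (1.39). HIF1A, the oxygen-regulated factor, had 156 and 399 (-1.34). At an adjusted p of at most 0.05, 11 were higher and 6 lower, which is 85% of the list, against 57.9% of all tested genes. The median log2 difference was 0.35, against 0.01 over all tested genes. All 20 had a mean FPKM of at least 1, and the shares were not compared at matched levels. RELA and NFKB1, the subunits of the classical NF-kappa B dimer, had means of 64 and 12.4 in the knockdown and 53.5 and 17.7 in SCR and were chosen after their values were seen.

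Proteases that release or trim chemokines were measured in the same way. Of the 9 genes, 2 rose and 2 fell. MMP2, a gelatinase that cleaves CCL7, had a mean FPKM of 317 in the knockdown and 1070 in SCR (log2 fold change -1.75). DPP4, which trims the amino terminus of CCL5, CXCL10 and CXCL12, had 17.5 and 40.8 (-1.17). MMP3, or stromelysin-1, had 228 and 3.94 (5.54). ADAM10 and ADAM17, the sheddases of CX3CL1 and CXCL16, were chosen after their values were seen and had means of 27.1 and 14.1 in the knockdown and 40.6 and 17 in SCR (log2 difference -0.56, adjusted p = 0.00144, and -0.25, adjusted p = 0.00527).

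The 3 genes whose levels were most like those of CCL2, the highest of the group by its mean, were MFSD3, PLEKHG4 and GBP2. The measure was the Euclidean distance of log2(FPKM + 1) over the 4 libraries, which was 0.149, 0.151 and 0.171. MFSD3 had an FPKM of 3.47 and 3.88 in the knockdown and of 14.80 and 14.74 in SCR.

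Markers of other cell types that make or receive these chemokines were low, and some differed between the groups, in shares no higher than over all genes. An adjusted p of at most 0.05 was reached by 37.5% of the myeloid, 25% of the lymphoid and 55.6% of the endothelial markers with a value. Over all tested genes the share was 57.9%. The 10 myeloid markers summed to 6.95 and 6.31 FPKM in the knockdown and 7.48 and 7.41 in SCR, with AIF1 and TYROBP listed without a value and no marker reaching 10. Of the 8 with a value, 1 was higher and 2 were lower in the knockdown at an adjusted p of at most 0.05. The higher was FCER1G (means 1.02 and 0.53), and the lower were CD14 (0.285 and 0.845, adjusted p = 0.00518) and CSF1R (2.06 and 3.14, adjusted p = 0.00337).

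The 8 lymphoid markers in the table summed to 2.05 and 2.47 in the knockdown and 3.54 and 4 in SCR, with CD3D, CD3E and MS4A1 among those without a value. Of the 4 with a value, only CD2 passed an adjusted p of 0.05 (log2 difference -1.43, adjusted p = 0.00236). It was lower, as CCL2 was, at 0.04 and 0 in the knockdown and 1.44 and 2.11 in SCR. The other 3 did not follow it. KLRD1 had means of 1.94 in the knockdown and 1.88 in SCR, NKG7 had 0.07 in both groups, and CD79A had 0.23 and 0.05. The 10 endothelial markers summed to 4.06 and 4.58 in the knockdown and 4.68 and 4.71 in SCR, and CDH5 and CLDN5 were at most 0.03. Of the 9 with a value, 3 were higher and 2 lower at an adjusted p of at most 0.05. ERG (means 0.81 and 0.07), KDR (0.86 and 0.34) and TEK (1.02 and 0.525) were higher in the knockdown, and PECAM1 (1.23 and 2.45) and VWF (0.055 and 0.955) were lower. None of the markers of these 3 cell types passed the thresholds of a call in limma, but adding 1 shrinks the changes of genes this low. VWF was 17.4 times as high in SCR by FPKM and missed only the fold (log2 difference -0.89, adjusted p = 3.99e-04). ERG was 11.6 times as high in the knockdown and missed both thresholds (log2 difference 0.75, adjusted p = 0.00343). The part of these cell types in the values above was not tested. The 10 glial and glioma markers summed to 5360 and 5170 in the knockdown and 2860 and 2790 in SCR. Most of this sum, and its rise, came from VIM (means 4670 in the knockdown and 1960 in SCR). By the thresholds, VIM and CD44 (315 and 152) rose, and TNC (266 and 687) and NES (3.25 and 13.6) fell. The astrocyte markers GFAP, S100B and AQP4 were at most 0.55 or without a value.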

How the data were processed

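RNA-seq was performed on a BGISEQ-500 (single-end, 50 bases) for 4 U87 libraries, 2 of the PTPRN knockdown and 2 of SCR. FPKM values were deposited by the authors for each gene and library, rounded to 2 decimals, in 2 tables that did not differ in any of 66380 values. The submitters' processing notes name HISAT2 (version 2.1.0) and hg19, whereas the positions in the deposited tables are those of GRCh38. The counting program, annotation and strand setting were not given in the sources used here. The deposited tables also hold the authors' own comparisons (log2 fold changes with p, q and false discovery values), which were not used.

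The 16595 genes with a value entered a fit of log2(FPKM + 1) on the group in limma 3.58.1 under R 4.3.3, with Benjamini-Hochberg adjustment and 3.72 degrees of freedom per gene, and 2719 genes without a value were left out. The fit was tested on simulated data with 200 changed genes. At a fold of 2 and an adjusted p of 0.05, 99% of them were recovered and 0 unchanged genes were called. The threshold of 0.001 and genes as low as CCL20 in SCR were not tested in this way. A call needed a fold change of 2 or more and an adjusted p no higher than 0.001. Read depth was estimated from the steps of low FPKM values in genes with 1 transcript, using lengths less 40 bases. Between 82.8% and 88.8% of these values were whole reads within rounding and 0.05 reads, against 25.3% to 25.7% for evenly spread values. Approximate reads follow from this estimate, and intervals are exact Poisson intervals that cover counting error only.

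The chemokines and the gene lists were chosen with earlier results of these data known. Named genes are all 10 chemokines, PTPRN, at most the 3 highest expressed called genes of each list, receptors of these chemokines that reached an FPKM of 1, chemokines with a value within 250 kb and the 3 genes nearest to CCL2. Others are stated as chosen after their values were seen, and these include the receptors CCR2, CCR6 and CXCR4, the inducing cytokines listed without or near a value, and the cell type markers. Motifs were searched on both strands of RefSeq promoters, and overlapping genes were taken from GENCODE 29. Alternatives were other pseudocounts, filters, scalings, an eBayes trend, a replicate block and each library left out.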

Additional observations from a re-analysis of the deposited data

How the results depend on the processing

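CCL2 stayed lower and CCL20 higher, past an adjusted p of 0.05 and a fold of 2, in all 12 alternatives. The number of the chemokine genes called at a fold of 2 and an adjusted p of 0.001 was 2 in the reported fit and under an eBayes trend, a minimum FPKM (1 or more in at least 2 libraries), quantile normalization and median-ratio scaling. It was 1 (CCL2) with a pseudocount of 0.1 and an eBayes trend, and 0 with a pseudocount of 0.1, with no filter and with any library left out (0 to 0). In these last settings 0 genes of the whole table passed, against 1111 in the reported fit, and 8700 to 10185 had an unadjusted p under 0.05. At an adjusted p of 0.05 the number was 2 in the reported fit, 3 with a pseudocount of 0.1, with an eBayes trend and with both, 4 with the minimum FPKM and with quantile normalization, and from 2 to 5 with a library left out, the 5 being without PTPRN knockdown replicate 1. The median log2 difference was 0.14, and it was 0.36 with a pseudocount of 0.1, with or without the trend, 0.42 over the 4 genes left by the minimum FPKM, and 0.10 to 0.19 with a library left out. The stricter kappa B motif matched 1 promoter instead of 2. The cause of these shifts was not tested, other than the fewer genes under the minimum FPKM. PTPRN stayed between -2.83 and -2.71.

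Libraries of the 2 groups share replicate numbers. The deviations of same-numbered libraries from their group means had a correlation of 0.0635 over 11272 genes. With only 2 libraries per group, this value cannot tell whether same-numbered libraries shared a culture or a batch. With the replicate block 0 of the chemokine genes and 0 of all genes passed 0.001, and 10108 genes had an unadjusted p under 0.05.

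Depth limited CCL7, CX3CL1, CXCL12 and CXCL14, which had at most 4 reads per library, and the SCR level of CCL20.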
